A study of Mus musculus with 25 samples.

Results

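The genes described here encode the nuclear part of the oxidative phosphorylation machinery, followed in neutrophils from the bone marrow of mice. They were chosen by symbol alone: every row of the count table starting with Ndufa, Ndufb, Ndufc, Ndufs, Ndufv, Uqcr, Cox4, Cox5, Cox6, Cox7, Cox8 or Atp5, together with Sdha, Sdhb, Sdhc and Sdhd. Of 94 such symbols, 2 carried the ending -ps and were dropped, and of the 92 left, 88 had 10 or more counts in at least 2 libraries. The table lists 35741 genes in all. The 4 symbols not kept were Cox7b2, Cox8b, Cox8c and Ndufa4l2, none with more than 1 count in any library. At the inner edge, Cox7a1 reached a second-highest count of 10 and Ndufaf2 one of 21. The 88 comprise 36 genes of complex I subunits, 7 complex I assembly factors (the Ndufaf genes), 4 genes of complex II, 8 of complex III, 16 of complex IV, counting Ndufa4, now known as a complex IV subunit, and 17 with an Atp5 symbol. Abundance entered the rule only through the 10-count minimum, and the rule uses no genotype. It was set with earlier results of these data known.

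Oxidative phosphorylation couples the oxidation of NADH and succinate to ATP synthesis across the inner mitochondrial membrane. Complexes I and II pass electrons to ubiquinone, complex III to cytochrome c and complex IV to oxygen, while complexes I, III and IV pump protons that drive ATP synthase. Mature neutrophils are known for few mitochondria and a strong reliance on glycolysis, and mitochondrial content is known to fall as their precursors in the marrow mature. The subunits encoded by mitochondrial DNA were not analysed here.

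Neutrophils were collected with a Percoll density gradient, between the 68% and 78% layers, from female C57BL/6J mice aged 6 to 13 weeks, and their messenger RNA was sequenced in 25 libraries with 100 bp reads. The genotypes combine loss of Ripk3 and Mlkl, which encode a kinase and the membrane-disrupting effector of necroptosis, with deletion of Ptpn6, which encodes the phosphatase SHP1, and of Casp8, the initiator caspase of death receptor signalling. The deletions of Ptpn6 and Casp8 are written ∆PMN in the labels. The Cre line that makes them is not given in the sources used here. The groups were wild-type (n = 3), Ripk3-/- (n = 3), Mlkl-/- (n = 3), Ripk3-/- Mlkl-/- (n = 2), Ripk3-/- Ptpn6∆PMN (n = 3), Mlkl-/- Ptpn6∆PMN (n = 2), Ripk3-/- Mlkl-/- Ptpn6∆PMN (n = 3), Casp8∆PMN Mlkl-/- Ptpn6∆PMN (n = 2) and Ripk3-/- Mlkl-/- Casp8∆PMN Ptpn6∆PMN (n = 2). All groups with Ptpn6∆PMN that were tested therefore also lack Ripk3, Mlkl or both. A single library came from Casp8∆PMN Ptpn6∆PMN mice, which keep Ripk3 and Mlkl and are labelled inflamed. Another library has a title and a genotype label that disagree, and it entered no comparison. Nothing in the labels ties replicates to separate mice, so the p-values measure only the spread between libraries, which may be technical.

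Library totals of estimated counts lay between 21598177 and 23187676. The targeted genes were checked before the members. Ptpn6 lay at 120 to 314 CPM (counts scaled by library size) in the 13 libraries with the deletion and at 490 to 707 CPM in 11 labelled intact. Ripk3 lay at 0 to 0.154 CPM in the 13 libraries labelled Ripk3-/- and at 2.51 to 10.5 CPM in 11 with the gene. Mlkl was between 0.230 and 1.64 CPM in the tested groups labelled Mlkl-/-, and between 1.40 and 4.85 CPM in the wild-type, Ripk3-/- and Ripk3-/- Ptpn6∆PMN libraries, so these ranges overlapped. Casp8 was at 16.3 to 23.5 CPM in the 4 tested libraries with Casp8∆PMN. It was at 21.3 CPM or more in the other tested libraries, so these ranges overlapped as well. All 12 neutrophil markers were detected in every library, with summed levels from 60972 to 138018 CPM.

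The promoters of the members carried letters bound by factors long tied to nuclear respiratory genes. They are a feature of the members that the choice by symbol did not use. RefSeq windows of GRCm38.p6, from 250 bases before to 50 bases after the annotated start, were found for 74 of the 88 members, and both strands were searched. The strict palindrome of NRF1 was present in 7 of 74 member windows, or 9.46%, against 1.07% of all 27025 genes with a window. Over the 23852 of those genes in the count table the share was 1.14%. Members passed a count minimum that these sets did not, and no share over expressed genes was taken. A looser form, in which the 2 central bases may be any, contains the first and was present in 28.4%, or 21 of 74, against 1891 of 27025. The GABPA letters CCGGAAG were present in 17 of 74 member windows against 9.93% of all, and the YY1 motif in 8.11% against 0.995%. The Sp1 letters GGGCGG differed less, at 44.6% against 38.2%. GABPA letters were more frequent in the promoters of cytoplasmic ribosomal proteins, at 37.3% of 67, and of mitochondrial ribosomal proteins, at 36.8% of 68, than in those of the members. The looser NRF1 letters stood at 10.4% and 20.6% in those lists, and the strict ones at 2.99% and 4.41%. The YY1 motif stood at 4.48% and 7.35%, the latter close to the members' share. A match describes the letters only. The strict NRF1 letters were in the windows of Atp5g2, Atp5k, Cox6a1, Ndufa11, Ndufaf4, Ndufaf5 and Uqcrc1, and the YY1 letters in those of Atp5j, Atp5sl, Ndufa9, Ndufs4, Ndufs6 and Ndufs7. The 250 bases before the start of 4 members follow, 5′ to 3′ on the gene's strand, with every match to any of these letters in capitals. Ndufv2 is the member with the smallest p across the 9 groups in edgeR, though its call was lost in 21 of 27 alternatives. Cox6a1 is among the most abundant, Ndufa11 carries the palindrome alone, and Atp5j carries YY1 and GABPA letters.
Ndufv2: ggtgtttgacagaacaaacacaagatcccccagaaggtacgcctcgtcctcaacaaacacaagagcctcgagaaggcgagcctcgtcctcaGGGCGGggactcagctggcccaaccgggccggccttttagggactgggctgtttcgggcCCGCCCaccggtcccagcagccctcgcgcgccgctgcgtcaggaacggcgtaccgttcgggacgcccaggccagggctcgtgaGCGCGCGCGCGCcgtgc
Cox6a1: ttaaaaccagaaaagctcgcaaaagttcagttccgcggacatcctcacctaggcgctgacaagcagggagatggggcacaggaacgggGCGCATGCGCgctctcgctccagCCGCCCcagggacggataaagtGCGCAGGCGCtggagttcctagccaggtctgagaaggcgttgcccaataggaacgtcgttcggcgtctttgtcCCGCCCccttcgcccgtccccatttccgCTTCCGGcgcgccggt
Ndufa11: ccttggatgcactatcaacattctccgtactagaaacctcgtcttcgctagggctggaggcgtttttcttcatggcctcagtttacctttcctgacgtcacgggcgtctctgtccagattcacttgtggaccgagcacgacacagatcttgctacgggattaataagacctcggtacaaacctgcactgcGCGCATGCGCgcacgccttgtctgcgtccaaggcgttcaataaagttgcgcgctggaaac
Atp5j: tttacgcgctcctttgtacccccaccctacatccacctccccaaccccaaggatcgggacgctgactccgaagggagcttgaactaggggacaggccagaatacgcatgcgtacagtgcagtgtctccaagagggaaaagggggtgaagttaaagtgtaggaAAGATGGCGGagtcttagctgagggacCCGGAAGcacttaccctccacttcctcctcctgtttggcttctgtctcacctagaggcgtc
These lie at chr17:66101560-66101809 on the minus strand (Ndufv2), chr5:115348959-115349208 on the minus strand (Cox6a1), chr17:56717512-56717761 on the plus strand (Ndufa11) and chr16:84834977-84835226 on the minus strand (Atp5j). The Cox6a1 window holds the strict palindrome, a looser match, GABPA letters on the opposite strand and 2 Sp1 matches within 250 bases. In Ndufv2 the capitals near the start are a GC repeat in which 2 looser NRF1 matches overlap. The Atp5j window is that of the start with the YY1 letters, since 6 members have more than 1 window.

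Transcript levels spanned 746-fold from the least to the most abundant member, with complex IV and ATP synthase genes highest and assembly factors lowest. Levels between genes are compared as mean CPM per kb of coding length over the 25 libraries, with gene models from GENCODE M21. Spans and ranks depend on this choice, as whole transcript length gives other values. The median member stood at 48.2 CPM per kb. By complex, the medians were 107 for complex IV, 99.6 for the Atp5 genes, 64.3 for complex III, 58.6 for complex II, 34.7 for complex I subunits and 3.48 for complex I assembly factors. Every assembly factor therefore lay below the median of each complex, the highest being Ndufaf3 at 11.4 and Ndufaf7 at 11.3 CPM per kb. Estimated counts split reads among near-identical copies. By shared 31-base words, 37 members share none with another gene, 57, those included, share under 10%, and Atp5g2, Atp5l, Atp5h, Ndufa12, Cox7c and Uqcrb share 50% or more with other genes, so their levels are uncertain.

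**Figure D1:**
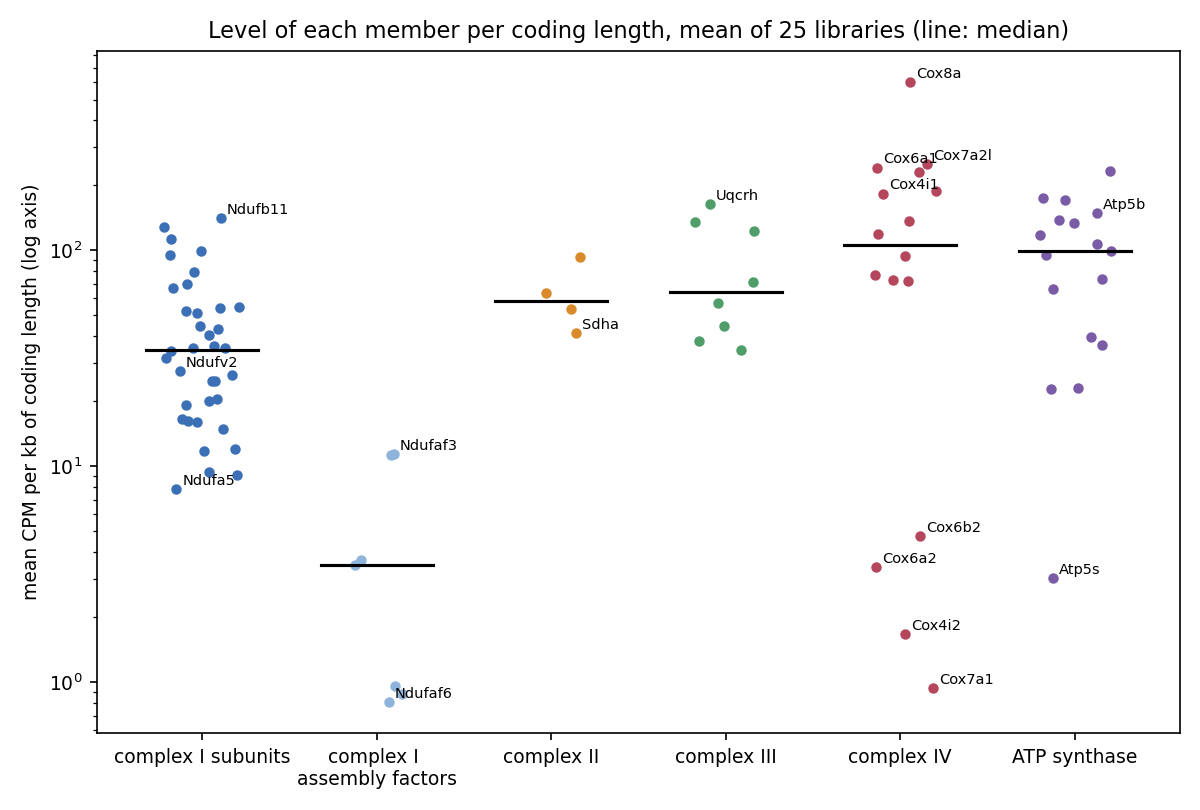
Mean CPM per kb of coding length (log axis) of each of the 88 members, by complex, with a point per gene and a black line at each median. Cox8a stands highest at 604 CPM per kb, and the assembly factors and the 4 minor complex IV isoforms lie under 12.

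Complex I takes electrons from NADH, and its 36 subunit genes ran from 7.85 CPM per kb for Ndufa5 to 141 for Ndufb11. Both are among 29 accessory subunits, which per kb of whole transcript ran from 0.654 to 84.8 CPM. Ndufv1, the core subunit that holds the NADH site, stood at 12.05 CPM per kb. Complex II is wholly nuclear-encoded. Its 4 genes lay within 2.26-fold of each other, from 41.5 for Sdha, the flavoprotein that oxidises succinate, to 93.7 CPM per kb for the membrane anchor Sdhd. Complex III genes ran from 34.7 for Uqcrfs1, the Rieske iron-sulfur protein, to 164 for Uqcrh, the hinge protein that binds the cytochrome c1 side.

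In ATP synthase, the catalytic head genes Atp5a1 and Atp5b stood at 99.6 and 149 CPM per kb, and the central stalk genes Atp5c1, Atp5d and Atp5e at 107, 118 and 172. Atp5g1, Atp5g2 and Atp5g3 encode the same mature membrane-ring subunit c and stood at 22.9, 66.4 and 74.0. Atp5g3 exceeded Atp5g1 by at least 2.42-fold in every library, and Atp5g2 did so by at least 2.22-fold, with the caution on shared sequence above. Atp5s, at 3.05, and Atp5sl, at 23.1, carry the Atp5 symbol, but Atp5sl is now known as a complex I assembly protein and neither is a structural subunit of the enzyme. Atpif1, the inhibitor protein of ATP synthase and not a member, was between 18.2 and 31.1 CPM.

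Complex IV held both the highest member and 4 of the lowest. Several of its subunits are known to have tissue-specific isoforms. Cox8a, the ubiquitous form of the smallest subunits, led at 604 CPM per kb, 12.5 times the median member. Per kb of whole transcript, a choice added after the data were seen, it was 8.23 times the median and still first. Cox7a2l followed at 252, Cox6a1 at 242 and Cox6b1 at 232 CPM per kb. In CPM, Cox8a ran from 103 through a median of 123 to 158 over the 25 libraries.

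The widely expressed isoforms prevailed in every library. Cox4i2, the form linked to hypoxia and to lung, made up 0.514% to 1.57% of the summed Cox4i1 and Cox4i2 levels per coding kb, with 11 to 33 counts per library. Cox6a2, the heart and muscle form, made up 0.295% to 3.002% beside Cox6a1, with 4 to 51 counts. Cox6b2, the testis form, made up 0.869% to 3.79% beside Cox6b1, with 14 to 64 counts. Cox7a1, another heart and muscle form, made up 0.142% to 1.63% beside Cox7a2, with 1 to 11 counts, and was the only member not tested between groups. Cox7b2 and Cox8c, testis forms, and Cox8b, a muscle and brown fat form, had 2, 0 and 1 counts in all libraries together. Ndufa4l2, a hypoxia-induced relative of Ndufa4, had 1. A count of 0 in a library allows up to 3 counts, or 0.115 to 0.162 CPM. This limit covers counting error only.

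**Figure D2:**
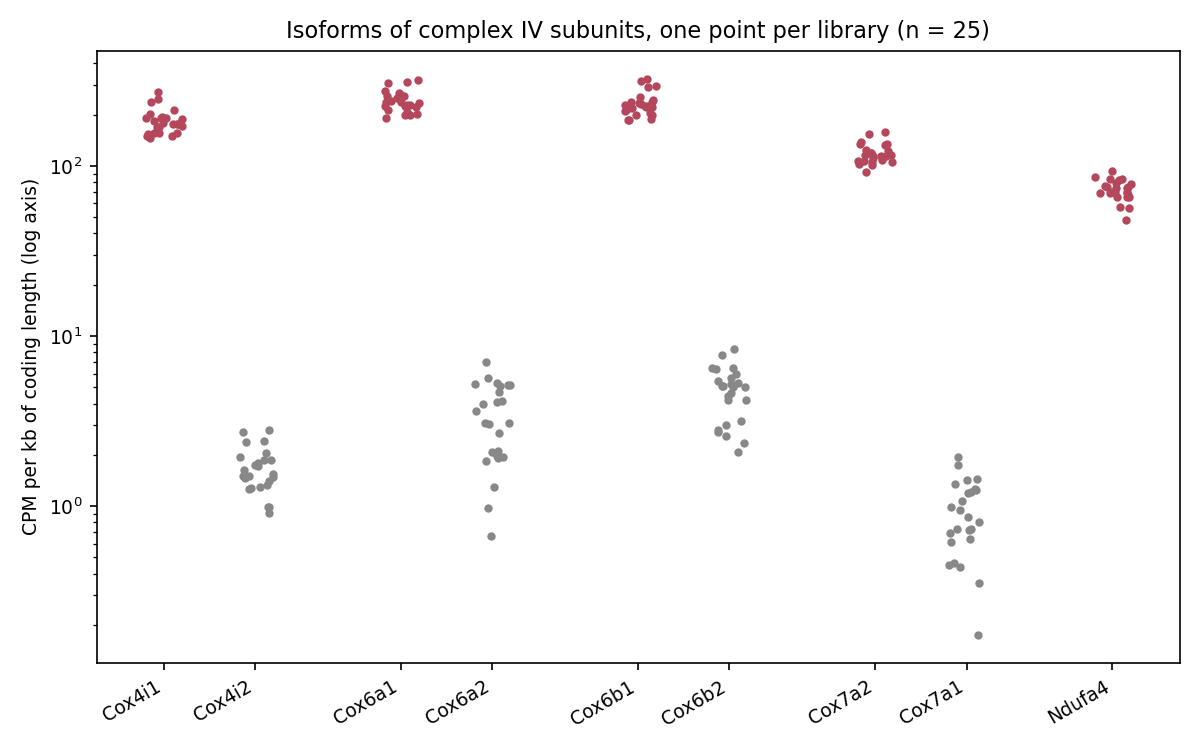
CPM per kb of coding length (log axis) of complex IV isoforms, a point per library (n = 25), with the widely expressed form in red and its alternative in grey. Ndufa4 stands alone, since Ndufa4l2 had 1 count in all. Cox4i1 exceeded Cox4i2 by at least 62.5-fold and Cox6b1 exceeded Cox6b2 by at least 25.4-fold in every library.

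Members with a mean of at least 10 CPM varied among the 25 libraries about as much as all genes at that level. Their median fold range, highest over lowest library, was 1.82, against 1.76 for all such genes. The highest library exceeded the lowest by under 2-fold for 52 of the 87 tested members and by under 3-fold for 79. The same shares were not taken over all genes. Atp5b was the steadiest, from 205 through a median of 241 to 260 CPM, a 1.27-fold range, followed by Uqcrc2, a core protein of complex III, at 43.8 to 57.1 CPM, and Sdha at 73.3 to 96.8 CPM. The widest ranges belonged to genes with few counts. Cox6a2 ranged 10.4-fold, Ndufaf2 7.84-fold and Ndufaf6 4.78-fold. Among genes with a mean of at least 10 CPM, the median coefficient of variation was 15.2% for 68 members and 14.5% for all 7277 such genes. It was 16.8% for cytoplasmic ribosomal protein genes, 13.3% for mitochondrial ribosomal protein genes, 11.9% for citrate cycle genes, 21.8% for glycolysis genes and 36.3% for cell cycle genes.

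Many members were high or low in the same libraries, including within genotypes. The mean over the 87 tested members of log2(CPM + 1) ran from 4.14 to 4.74, a range of 0.61, with a pooled within-group SD of 0.105 (14 degrees of freedom). The lowest library was Mlkl-/- replicate 3 at 4.14, where 9 of 87 members lay above their own median over libraries and 32 had their lowest value. Ripk3-/- Mlkl-/- replicate 3 followed at 4.20, with 6 members above their median. The highest was Casp8∆PMN Mlkl-/- Ptpn6∆PMN replicate 2 at 4.74, where 82 members lay above their median and 39 had their highest value. Such counts, here and below, were not taken over all genes, so they do not set the members apart from other genes. Group means were 4.37 ± 0.07 (SD, n = 3) in wild-type and 4.41 ± 0.04 (SD, n = 3) in Ripk3-/- libraries. They were 4.28 ± 0.13 (SD, n = 3) in Mlkl-/- and 4.26 ± 0.09 (SD, n = 2) in Ripk3-/- Mlkl-/- libraries. With Ptpn6∆PMN they were 4.44 ± 0.12 (SD, n = 3) in Ripk3-/-, 4.42 ± 0.09 (SD, n = 2) in Mlkl-/- and 4.41 ± 0.15 (SD, n = 3) in Ripk3-/- Mlkl-/- libraries. With Casp8∆PMN as well they were 4.64 ± 0.15 (SD, n = 2) in Mlkl-/- and 4.37 ± 0.03 (SD, n = 2) in Ripk3-/- Mlkl-/- libraries. The 2 libraries of Casp8∆PMN Mlkl-/- Ptpn6∆PMN, at 4.54 and 4.74, lay above both of Mlkl-/- Ptpn6∆PMN, at 4.36 and 4.48. Placed in order, neighbouring group means differed by less than the pooled SD, except for the last step, from 4.44 to 4.64, where the libraries of those 2 groups also did not overlap. The highest group was not clear of all others, since Ripk3-/- Mlkl-/- Ptpn6∆PMN replicate 2, at 4.58 with 79 members above their median, exceeded its replicate 1 at 4.54. In bulk RNA, fewer cells of a type and less RNA per cell cannot be told apart.

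**Figure D3:**
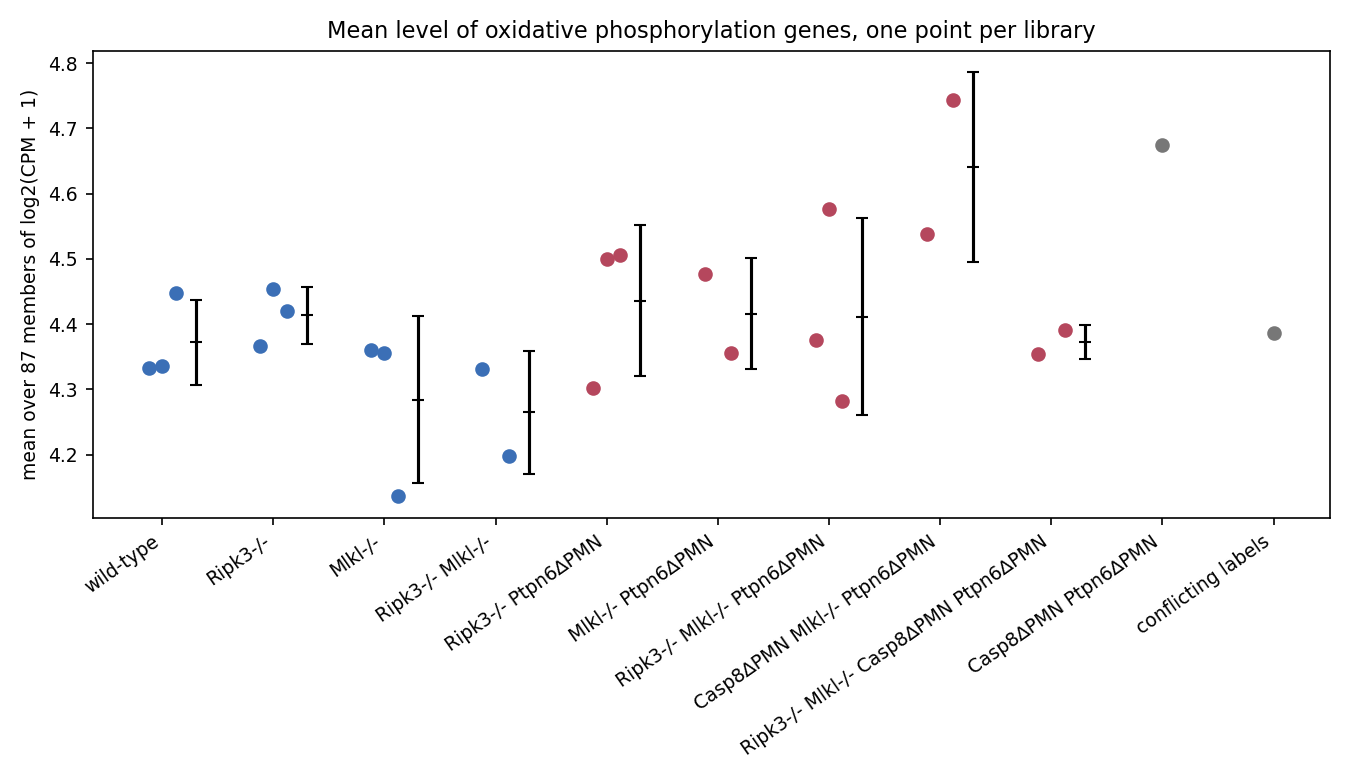
Mean over 87 members of log2(CPM + 1), a point per library, with the mean and SD of each group beside its points. Blue marks groups with intact Ptpn6, red the tested groups with Ptpn6∆PMN and grey the 2 libraries outside the comparisons. Mlkl-/- replicate 3 is lowest at 4.14 and Casp8∆PMN Mlkl-/- Ptpn6∆PMN replicate 2 highest at 4.74.

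Other gene lists were low in the same library. Mlkl-/- replicate 3 was also the lowest of the 25 libraries for cytoplasmic ribosomal protein genes (mean 6.05), mitochondrial ribosomal protein genes (2.84), 22 cell cycle genes (3.52), 10 azurophil granule genes (3.95) and 9 progenitor markers (2.74), all as mean log2(CPM + 1). The part of cell composition in the members' levels was not tested.

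Loss of the necroptosis genes alone left no member past the threshold, which was an adjusted p under 0.05 in edgeR's quasi-likelihood test over all 16206 genes tested. The 3 comparisons with wild-type share the same 3 wild-type libraries. In Ripk3-/- libraries 0 of 87 members were called, against 0.228% of all genes, and 1 member had an unadjusted p under 0.05, against 6.86% of all genes (4.12% higher and 2.74% lower). The members' median log2 difference was 0.06, with 53 of 87 above 0, against a median of 0.00 and 49.5% above 0 over all genes. In Mlkl-/- libraries 0 members were called, against 1.16% of all genes. There 11 members were lower and 1 was higher at an unadjusted p under 0.05, against 9.23% and 10.2% of all genes, and 35 of 87 were above 0, against 47.0%. The members' median was -0.08 against -0.03 for all genes, and 0.00 without Mlkl-/- replicate 3. In Ripk3-/- Mlkl-/- libraries 0 members were called, against 1.04% of all genes, and 24 of 87 were above 0, against 46.5% of all genes. At an unadjusted p under 0.05, 3 members were lower, against 5.66% of all genes, and 1 was higher, against 8.60%. Their median was -0.07 against -0.03, and -0.20 without Ripk3-/- Mlkl-/- replicate 2. DESeq2 called 0 members in Ripk3-/- and in Mlkl-/- libraries and 1 in Ripk3-/- Mlkl-/- libraries, against 1.64% of the genes it tested. Those were 26926 genes, including genes below the edgeR count filter that the 87 members passed. They were counted by having a p, with or without an adjusted p from DESeq2. Its shares are therefore over an unlike, wider set.

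The member DESeq2 called was Ndufc1, a small accessory subunit of the membrane arm of complex I. Ndufc1 stood at 4.35, 3.70 and 4.81 CPM in the wild-type libraries and at 2.14 and 2.46 CPM in the Ripk3-/- Mlkl-/- libraries, so the groups did not overlap. The log2 difference was -0.90 (SE 0.26), with an adjusted p of 0.104 in edgeR and 0.04995 in DESeq2. In Mlkl-/- libraries it stood at 3.61, 3.07 and 2.17 CPM, all below the 3 wild-type values, with a log2 difference of -0.54 (SE 0.22) and an adjusted p of 0.201 in edgeR. Cox5a, a nuclear subunit of complex IV on the matrix side, was at 30.6, 29.0 and 32.4 CPM in wild-type and 24.3 and 23.3 CPM in Ripk3-/- Mlkl-/- libraries, again without overlap (log2 difference -0.36, SE 0.13, edgeR adjusted p = 0.200). Uqcrh went the other way there, at 33.6, 33.3 and 37.4 CPM against 50.02 and 39.7 CPM (log2 difference 0.37, SE 0.16, edgeR adjusted p = 0.301). Absence of overlap, here and below, describes members picked for their small p and adds no support.

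Ndufa10, an accessory subunit of complex I, had the smallest p among the members in Mlkl-/- libraries. It was at 19.7, 19.6 and 19.7 CPM in wild-type and at 14.5, 15.5 and 11.5 CPM in Mlkl-/- libraries (log2 difference -0.50, SE 0.17, edgeR adjusted p = 0.128). These groups did not overlap. Ndufc2, the partner of Ndufc1, and Sdhc, a membrane anchor of complex II, came next, with log2 differences of -0.62 (SE 0.24) and -0.30 (SE 0.11) and edgeR adjusted p of 0.179 and 0.175. In Ripk3-/- libraries Cox7a2l came first, at 91.9, 110 and 103 CPM against 80.5, 80.0 and 85.7 CPM in wild-type, without overlap (log2 difference 0.31, SE 0.13, edgeR adjusted p = 0.627). Uqcrh (0.30, SE 0.14) and Ndufa6 (0.27, SE 0.13), an accessory subunit of complex I, followed on the log2 scale, with edgeR adjusted p of 0.727 and 0.728. Cell cycle genes stood apart more than the members in Mlkl-/- libraries: 0 of 22 were above 0, with a median of -1.06 and summed levels of 342 to 677 CPM against 853 to 989 CPM in wild-type. None passed the adjusted threshold (15 at an unadjusted p under 0.05). In Ripk3-/- and Ripk3-/- Mlkl-/- libraries the cell cycle medians were -0.41 and -0.73.

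Markers of other cell types and stages differed in the same comparisons. Csf1r, the macrophage growth factor receptor, rose in Mlkl-/- (0.74, SE 0.14, edgeR adjusted p = 0.0166) and in Ripk3-/- Mlkl-/- libraries (0.76, SE 0.16, edgeR adjusted p = 0.0261). It was the 1 marker called of 14 for monocytes and macrophages, whose medians were 0.64 and 0.56 and whose summed levels were 1037 to 1340 and 1138 to 1303 CPM against 1049 to 1129 CPM in wild-type. Gata2 (-1.91, SE 0.41, edgeR adjusted p = 0.0298) and Ms4a2 (-1.75, SE 0.41, edgeR adjusted p = 0.0463), basophil and mast cell genes, fell in Ripk3-/- Mlkl-/- libraries. Over the 10 markers of those cells the median was -1.73 there, with 1 above 0 and summed levels of 1192 to 1197 CPM against 1285 to 1363 CPM. The 10 azurophil granule genes, made early in neutrophil maturation, had medians of -0.62, -0.81 and -1.21 in Ripk3-/-, Mlkl-/- and Ripk3-/- Mlkl-/- libraries, with 0 called in edgeR (4, 5 and 6 lower at an unadjusted p under 0.05). Elane, which encodes neutrophil elastase, was at 28.0 to 43.7 CPM in wild-type and at 6.15 to 9.97, 1.37 to 14.1 and 2.38 to 13.2 CPM in these groups. These lists were chosen with earlier results of these data known, so their calls are not independent support. The part of these lists in the members' differences was not tested.

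Ptpn6 deletion was compared within each necroptosis-deficient background. No member was called in any of the 3 backgrounds, or in their average, and DESeq2 called 0 in all 4. The share of all genes called was 0.0185% in Ripk3-/-, 1.51% in Mlkl-/-, 0.00617% in Ripk3-/- Mlkl-/- and 1.55% in the average. These comparisons use the libraries described above as their controls. In Mlkl-/-, 75 of 87 members were above 0 against 45.8% of all genes, with medians of 0.16 and -0.04, and 10 were higher and 3 lower at an unadjusted p under 0.05, against 8.86% and 8.63%. The median was 0.08 without Mlkl-/- replicate 3 and 0.10 without Mlkl-/- Ptpn6∆PMN replicate 1. In Ripk3-/- Mlkl-/-, 74 of 87 were above 0 against 54.1%, with medians of 0.17 and 0.03. There 7 were higher and 0 lower at an unadjusted p, against 2.31% and 2.81% of all genes (5.12% together). The median was 0.07 without Ripk3-/- Mlkl-/- Ptpn6∆PMN replicate 2 and 0.10 without Ripk3-/- Mlkl-/- replicate 3. In Ripk3-/-, 50 of 87 were above 0 against 50.4%, with medians of 0.03 and 0.00. None passed an unadjusted p of 0.05 there, against 5.50% of all genes (2.77% higher and 2.73% lower), and the median ran from -0.02 without Ripk3-/- Ptpn6∆PMN replicate 2 to 0.09 without its replicate 1. Averaged over the 3, 76 of 87 were above 0 against 50.2%, with medians of 0.10 and 0.00, and 18 members were higher and 0 lower at an unadjusted p under 0.05, against 7.29% and 8.26% of all genes. The 95% intervals of 85 members lay within a 2-fold change either way, and those of 77 within 1.5-fold. An interaction test between Ptpn6 deletion and background called 0 members and 0% of all genes. At an unadjusted p, 2 members passed 0.05 in it, against 6.50% of all genes, and DESeq2 called 0 members. Ndufaf6, Atp5s and Ndufaf7 had the smallest p in it, with edgeR adjusted p of 0.743, 0.763 and 0.770.

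**Figure D4:**
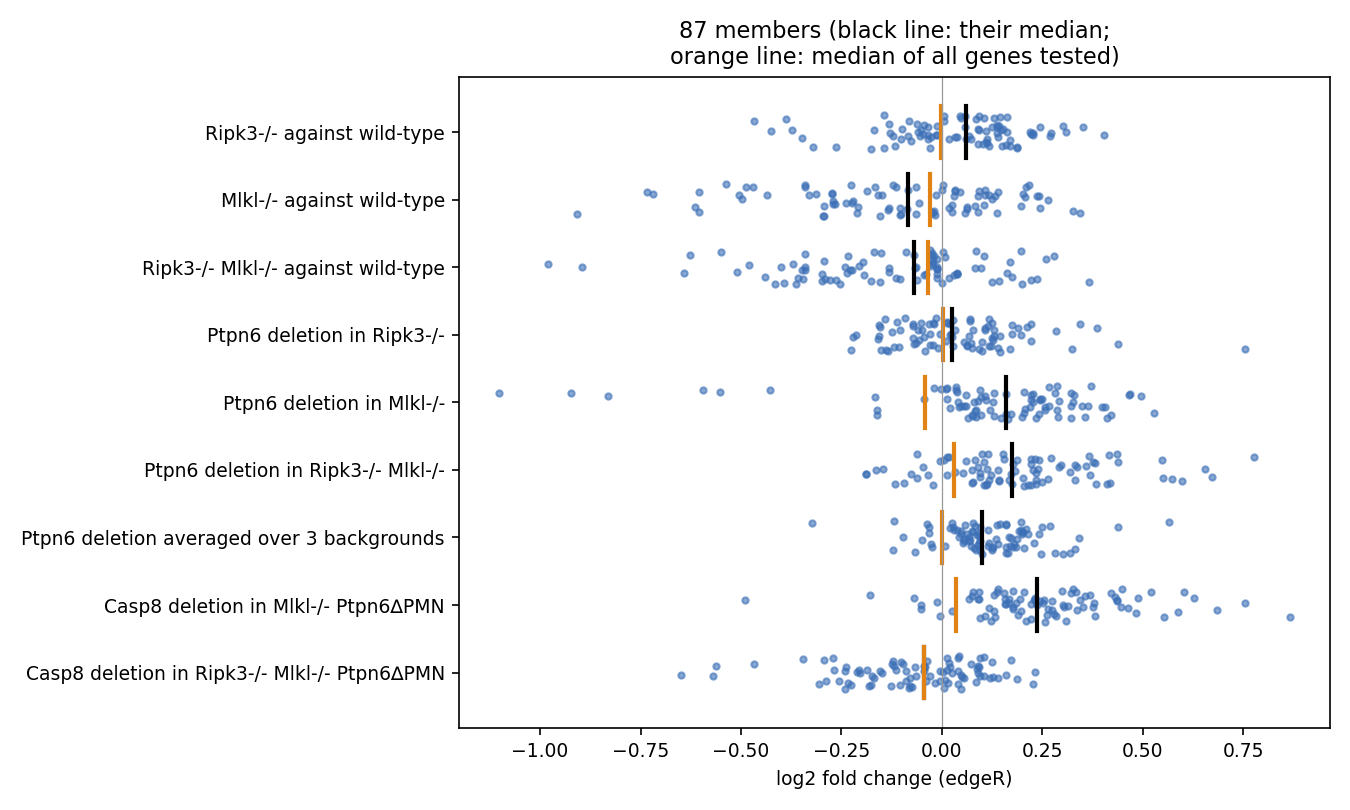
The edgeR log2 fold change of each of the 87 tested members in 9 comparisons, with black lines at the members' medians and orange lines at the medians of all 16206 genes. The members' medians range from -0.08 in Mlkl-/- against wild-type to 0.24 for Casp8 deletion in Mlkl-/- Ptpn6∆PMN.

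By complex, the average effect of Ptpn6 deletion had 33 of 36 complex I subunits, 3 of 4 complex II genes, 7 of 8 complex III genes, 13 of 15 tested complex IV genes and 14 of 17 Atp5 genes above 0, with medians between 0.09 and 0.12. Ndufc1 had the smallest p. It was at 3.81, 2.59 and 3.42 CPM in Ripk3-/- and 3.51, 4.93 and 4.91 CPM in Ripk3-/- Ptpn6∆PMN libraries, which overlapped. It was at 2.14 and 2.46 CPM in Ripk3-/- Mlkl-/- and 3.88, 4.70 and 3.26 CPM in Ripk3-/- Mlkl-/- Ptpn6∆PMN libraries, which did not. The averaged log2 difference was 0.44 (SE 0.14, edgeR adjusted p = 0.113). The 2 comparisons of Ripk3-/- Mlkl-/- libraries given for Ndufc1 share those libraries. Ndufa11, an accessory subunit of the membrane arm of complex I, followed Sdhb at 0.34 (SE 0.12, edgeR adjusted p = 0.145).

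Sdhb, the iron-sulfur subunit of complex II, was second in the average at 0.20 (SE 0.07, edgeR adjusted p = 0.144) and first within Mlkl-/-. There it was at 43.4, 55.0 and 52.6 CPM without and 64.5 and 65.7 CPM with the deletion, which did not overlap (log2 difference 0.37, SE 0.12, edgeR adjusted p = 0.112). Ndufa8, a complex I subunit of the intermembrane space, followed with 0.50 (SE 0.17, edgeR adjusted p = 0.136). Atp5sl was lower, at 23.4, 16.3 and 18.1 CPM without and 11.1 and 10.6 CPM with the deletion in Mlkl-/- (log2 difference -0.83, SE 0.29, edgeR adjusted p = 0.139), again without overlap. In Ripk3-/- Mlkl-/- its values overlapped, with 15.0 and 24.0 CPM without and 28.1, 21.9 and 12.1 CPM with the deletion. Cox5a, at 30.4, 33.4 and 28.3 CPM with and 24.3 and 23.3 CPM without the deletion in Ripk3-/- Mlkl-/-, did not overlap either (log2 difference 0.37, SE 0.13, edgeR adjusted p = 0.846). Cox7c, another small subunit of complex IV with shared sequence, followed at 0.38 (SE 0.14, edgeR adjusted p = 0.846). Within Ripk3-/- the smallest p belonged to Ndufc1 (0.44, SE 0.22), Cox6b2 (0.75, SE 0.38) and Ndufv2 (0.21, SE 0.12), with edgeR adjusted p of 0.944, 0.949 and 1.

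The count of calls in the average depended on single libraries. Without Ripk3-/- Ptpn6∆PMN replicate 1, 4 members were called in edgeR (Ndufb11, Ndufc1, Sdhb and Uqcrfs1), against 6.45% of all genes. Without Ripk3-/- Mlkl-/- Ptpn6∆PMN replicate 3, 1 was called (Ndufa11), against 2.07% of all genes.

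Beside these values, 20 glycolysis genes had a median log2 difference of 0.57 in Mlkl-/- and 0.23 in the average, with 18 and 19 of 20 above 0. In edgeR with adjusted p under 0.05, Aldoc (1.48, SE 0.30), an aldolase, and Pfkl (0.76, SE 0.18), the liver-type phosphofructokinase, rose in Mlkl-/- on the log2 scale. Pfkl (0.46, SE 0.10) and Slc2a1 (0.67, SE 0.15), a glucose transporter, rose in the average. In Ripk3-/- Mlkl-/- the glycolysis median was -0.08. Among the 18 citrate cycle genes the averaged median was 0.09, with 13 above 0 and 0 called (edgeR, 3 higher at an unadjusted p under 0.05). The 77 mitochondrial ribosomal protein genes had a median of 0.06 with 54 above 0 and 0 called (1 higher and 1 lower unadjusted). Another 14 genes came from a list of cytochrome c, cytochrome c1, electron-transfer flavoprotein and ubiquinone synthesis genes. Among them Pdss2, which lengthens the side chain of ubiquinone, rose by 0.56 (SE 0.13, edgeR adjusted p = 0.0367). Of 30 assembly factors outside the members, 0 were called and the median was 0.03. Of 15 regulators of mitochondrial biogenesis, 0 were called and the median was 0.02. Over the same average the 14 erythroid markers had a median of -0.58 with 0 above 0, and the 22 cell cycle genes had 0.40 with 21 above 0. The macrophage genes Fcna (-1.57, SE 0.34, edgeR adjusted p = 0.0279) and Cd163 (-1.17, SE 0.29, edgeR adjusted p = 0.0453) fell, and the 14 monocyte and macrophage markers had a median of -0.51 with 4 above 0. Ctsc, the protease that activates azurophil granule enzymes, rose (0.92, SE 0.15, edgeR adjusted p = 0.00910), and the 10 azurophil granule genes had a median of 0.53 with 10 above 0. The 14 specific granule genes had 0.27 with 13 above 0. No marker was at 0 in any library. All lists in this paragraph were chosen with earlier results of these data known, so calls within them are not independent support. Their part in the members' values was not tested.

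Deletion of Casp8 was compared between libraries that all carry Ptpn6∆PMN. With Ripk3 present, in Mlkl-/- Ptpn6∆PMN, 0 members and 0% of all genes were called in edgeR. There 80 of 87 members were above 0 against 54.2% of all genes, with medians of 0.24 and 0.04, and 15 were higher and 0 lower at an unadjusted p under 0.05, against 4.67% and 4.68% of all genes (9.35% together). All 36 complex I subunits, all 8 complex III genes and all 15 tested complex IV genes were above 0, with medians of 0.25, 0.28 and 0.25. For complex II it was 2 of 4, with a median of 0.01, for the Atp5 genes 15 of 17, with 0.16, and for the assembly factors 4 of 7, with 0.30. With only 2 libraries on each side, leaving out each library moved the members' median between 0.13 and 0.35. It was 0.35 without Mlkl-/- Ptpn6∆PMN replicate 1 and 0.13 without Casp8∆PMN Mlkl-/- Ptpn6∆PMN replicate 2. With Ripk3 also absent, 0 members and 0% of all genes were called, 36 of 87 members were above 0 against 44.2%, and both medians were -0.04. At an unadjusted p under 0.05, 1 member was lower and 0 were higher, against 2.38% and 2.25% of all genes (4.63% together). The median was 0.05 without Ripk3-/- Mlkl-/- Ptpn6∆PMN replicate 2.

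The difference between these 2 effects was itself tested. No member was called, against 0.00617% of all genes, and DESeq2 called 0. The members' median difference was -0.31 (Ripk3 absent minus Ripk3 present) against -0.09 for all genes, with 8 of 87 above 0 against 43.2%. At an unadjusted p under 0.05, 13 members were lower and 0 higher, against 4.98% and 4.31% of all genes (9.29% together). The 95% intervals of only 57 members lay within 2-fold, the fewest of the 10 comparisons with a direction. Without Casp8∆PMN Mlkl-/- Ptpn6∆PMN replicate 2, the library with the highest member level, the median difference was -0.16, and without its replicate 1 it was -0.42.

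Ndufv2, a core iron-sulfur subunit of complex I in the NADH-oxidising arm, had the smallest p in both comparisons. It was at 18.5 and 19.0 CPM in Mlkl-/- Ptpn6∆PMN and at 25.4 and 34.9 CPM in Casp8∆PMN Mlkl-/- Ptpn6∆PMN libraries. The groups did not overlap, which adds no support with 2 libraries on each side, and the Casp8-deleted pair also differed from each other. The log2 difference was 0.69 (SE 0.15), with an adjusted p of 0.187 in edgeR and 0.0155 in DESeq2. There Ndufv2 was the 1 member called, against 0.349% of the wider set of 26926 genes. With Ripk3 absent it was at 19.9, 22.2 and 21.4 CPM without and 20.1 and 18.9 CPM with Casp8 deletion (log2 difference -0.11, SE 0.14, edgeR adjusted p = 0.882). The difference between the effects was -0.80 (SE 0.20, edgeR adjusted p = 0.368). Ndufb3, a small subunit of the membrane arm, was at 17.5 and 14.5 CPM against 20.6 and 27.5 CPM with Ripk3 present (log2 difference 0.59, SE 0.20, edgeR adjusted p = 0.371), also without overlap. Atp5s followed, with a log2 difference of 0.75 (SE 0.27, edgeR adjusted p = 0.389). Uqcrh was at 46.9 and 40.1 CPM against 56.0 and 62.7 CPM with Ripk3 present and at 37.7, 48.1 and 45.6 CPM against 33.9 and 39.4 CPM with Ripk3 absent. Its difference between the effects was -0.70 (SE 0.24, edgeR adjusted p = 0.442). Ndufaf3, an assembly factor, was at 7.45, 8.05 and 7.26 CPM against 4.55 and 5.68 CPM with Ripk3 absent (log2 difference -0.57, SE 0.19, edgeR adjusted p = 0.864), without overlap, and its difference between the effects was -0.87 (SE 0.27, edgeR adjusted p = 0.406). Ndufa6 (-0.29, SE 0.15) and Ndufa7 (-0.27, SE 0.15), accessory subunits of complex I, followed there with edgeR adjusted p of 0.864.

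Ribosomal protein genes lay mostly above 0 and erythroid markers below 0 in the same comparison. With Ripk3 present, 83 of 87 cytoplasmic ribosomal protein genes (median 0.25) and 72 of 77 mitochondrial ones (median 0.31) were above 0 after Casp8 deletion, with 0 called in edgeR in both lists (6 and 17 higher at an unadjusted p under 0.05). All 14 erythroid markers were below 0, with a median of -1.41, and their summed level was 791 to 3514 CPM against 4329 to 6770 CPM in Mlkl-/- Ptpn6∆PMN libraries. None of the markers was at 0. Camp, a specific granule gene made in maturing neutrophils, was at 4335 to 5243 CPM against 2544 to 3295 CPM in Mlkl-/- Ptpn6∆PMN libraries, without overlap, and at 3825 CPM in the single Casp8∆PMN Ptpn6∆PMN library. The 14 specific granule genes had a median of 0.05 with 9 above 0, and their summed levels overlapped, at 79016 to 82143 against 74342 to 81386 CPM. The 10 azurophil granule genes had a median of 0.32 with 8 above 0. With Ripk3 absent the erythroid median was -1.01, also with 0 of 14 above 0, beside a member median of -0.04. The part of these lists in the members' values was not tested.

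Across all 9 groups at once, edgeR called 1 member, Ndufv2, with an adjusted p of 0.0496, against 1.58% of all genes. At an unadjusted p under 0.05, 31 of 87 members passed, or 35.6%, against 22% of all genes. Ndufv2 lay between 16.9 and 24.5 CPM in 21 of the 23 fitted libraries, and only the Casp8∆PMN Mlkl-/- Ptpn6∆PMN pair was higher. Cox5a had an adjusted p of 0.0761 in edgeR. Among the fitted libraries it was highest in the same pair, at 38.03 and 47.5 CPM, and lowest in the Ripk3-/- Mlkl-/- pair. Atp5l, a membrane subunit of ATP synthase, had an adjusted p of 0.0856 in edgeR, with 100 and 103 CPM in the Casp8∆PMN Mlkl-/- Ptpn6∆PMN pair and 51.9, 55.4 and 71.6 CPM in wild-type. DESeq2 called 24 members, against 9.90% of the 26926 genes it tested. That set includes genes below the edgeR count filter and any without an adjusted p, so the 2 shares are not alike. The edgeR call was lost in 21 of 27 alternatives, with an adjusted p up to 0.293 without Casp8∆PMN Mlkl-/- Ptpn6∆PMN replicate 2. Without Ripk3-/- Mlkl-/- Ptpn6∆PMN replicate 3, edgeR called 18 members, against 20.5% of all genes. Without Ripk3-/- Ptpn6∆PMN replicate 1 it called 5, against 5.51%, and without its replicate 2 it called 2, against 3.58%.

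**Figure D5:**
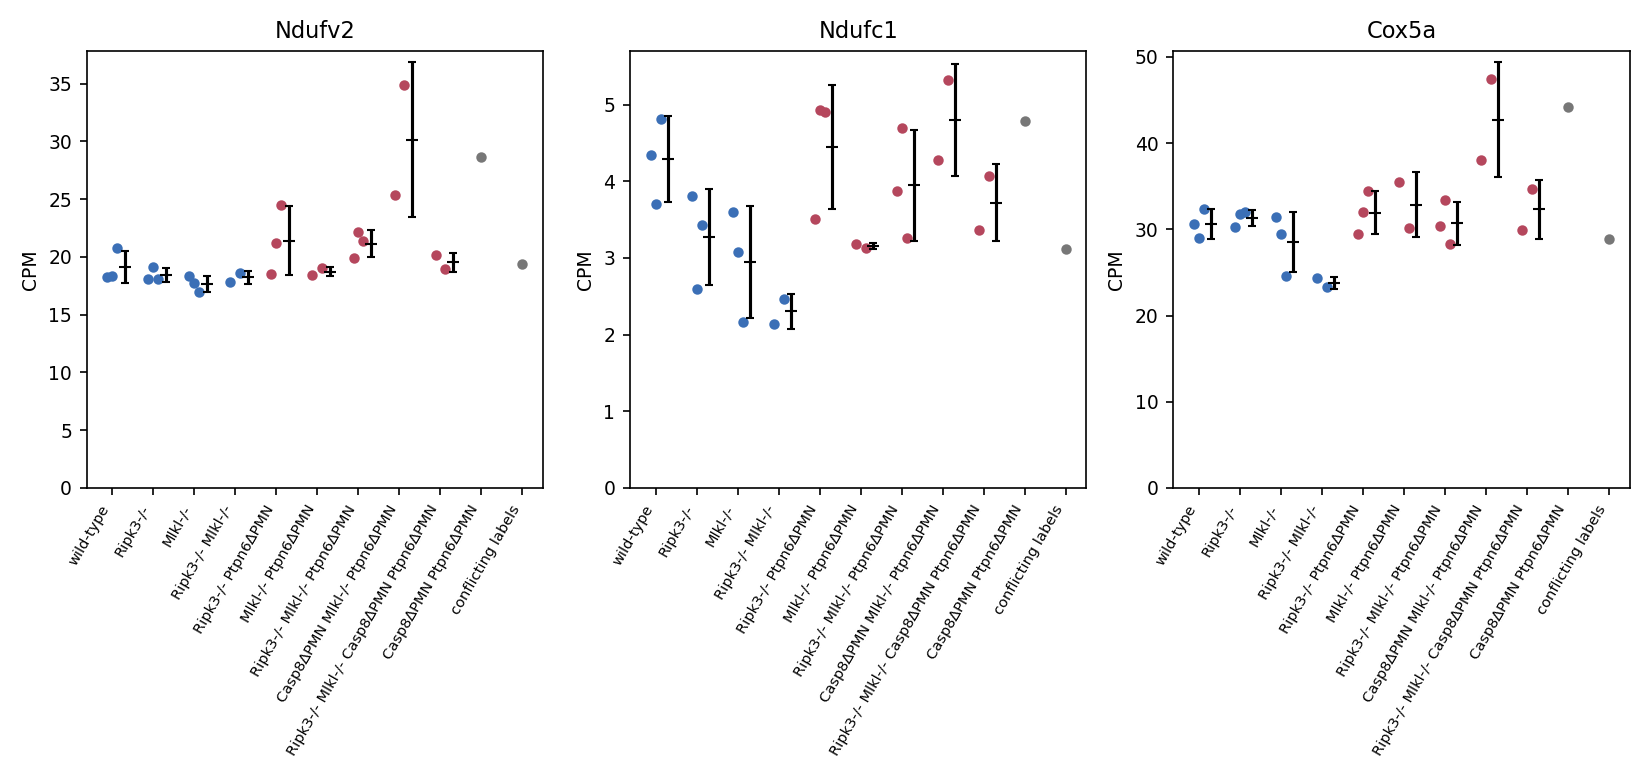
CPM of Ndufv2, Ndufc1 and Cox5a in each library, a point per library, with the mean and SD of each group beside its points. Ndufv2 and Cox5a are highest in Casp8∆PMN Mlkl-/- Ptpn6∆PMN replicate 2, at 34.9 and 47.5 CPM. The Casp8∆PMN Ptpn6∆PMN library, outside the comparisons, comes next for both. Ndufc1 is lowest in Ripk3-/- Mlkl-/- replicate 2 at 2.14 CPM.

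Atp5b, the catalytic subunit of ATP synthase, had the narrowest range among the members. It was at 228 ± 9.12 CPM (SD, n = 3) in wild-type and 242 ± 10.4 CPM (SD, n = 2) in Casp8∆PMN Mlkl-/- Ptpn6∆PMN libraries. Its averaged log2 difference with Ptpn6 deletion was 0.08, with a 95% interval from -0.04 to 0.20. With Casp8 deletion in Mlkl-/- Ptpn6∆PMN it was -0.05, with an interval from -0.29 to 0.19.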

How the data were processed

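Estimated counts per gene were deposited by the authors as 1 table of 25 libraries. The submitters' processing notes name Salmon 0.14.1, GRCm38.p6 and DESeq2 (no version given). The step from transcripts to genes is not given in the sources used here. The values, of which 24.9% were not whole, were rounded. All 23 libraries of the 9 groups with 2 or more libraries entered a single edgeR 4.0.16 quasi-likelihood fit (R 4.3.3, TMM scaling, filterByExpr with a minimum count of 10 and a minimum total of 15), with 14 residual degrees of freedom, 12 comparisons and Benjamini-Hochberg adjustment over 16206 genes. The threshold was an adjusted p of 0.05. CPM used TMM effective library sizes. Mean levels used a pseudocount of 1. The single Casp8∆PMN Ptpn6∆PMN library and the library with conflicting labels were not fitted. The text names the 3 members with the smallest p in each comparison, and others as examples chosen after their values were seen. The members and lists were chosen with earlier results of these data known. Alternatives were DESeq2 1.42.0, DESeq2 size factors, no filter, the replicate number as a block, the compared libraries alone and each library left out. The fit was tested on simulated data. No 2 replicates of a group agreed within sampling noise.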

Additional observations from a re-analysis of the deposited data

Results flagged for a closer look

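The single library from Casp8∆PMN Ptpn6∆PMN mice, labelled inflamed and outside every comparison, lay above all 3 wild-type libraries in the mean log2(CPM + 1) of the members, at 4.67 against a highest wild-type value of 4.45. By complex it stood at 4.46 against 4.23 for complex I subunits, 5.83 against 5.59 for complex II and 5.30 against 4.96 for complex III. It stood at 4.94 against 4.66 for complex IV and at 5.47 against 5.25 for the Atp5 genes. In it 64 of 87 members exceeded every wild-type library and 8 lay below every one, where 34.5% and 38% of all genes did so. The members' median log2 difference from the wild-type mean was 0.31, against -0.03 for all genes. Ndufv2 was at 28.7 CPM and Cox5a at 44.2 CPM there, both above every other library except Casp8∆PMN Mlkl-/- Ptpn6∆PMN replicate 2. With 1 library there is no replicate check and no test.

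The library with conflicting labels exceeded the highest wild-type value for complex II alone, at 5.65 against 5.59. Of its 87 members 33 lay above and 28 below every wild-type library, against 30.4% and 33.2% of all genes, with a median log2 difference of 0.01.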

How the results depend on the processing

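The 1 called result, Ndufv2 across the 9 groups, has no direction, and its call was lost in 21 of 27 alternatives. Member medians near 0 changed sign when 1 library was left out in 3 comparisons: Mlkl-/- against wild-type, Ptpn6 deletion in Ripk3-/- and Casp8 deletion in Ripk3-/- Mlkl-/- Ptpn6∆PMN. The count of members that differed among all 9 groups was 1; it was 0 with DESeq2 size factors, 0 with no filter, 24 with the DESeq2 test and 0 to 18 when each library was left out. DESeq2 called 1 member in Ripk3-/- Mlkl-/- against wild-type and 1 for Casp8 deletion in Mlkl-/- Ptpn6∆PMN. The averaged count for Ptpn6 deletion ran from 0 to 4 over left-out libraries. Leaving out each library moved the members' median between 0.13 and 0.35 for Casp8 deletion in Mlkl-/- Ptpn6∆PMN, between -0.20 and -0.036 in Ripk3-/- Mlkl-/- against wild-type, and between -0.42 and -0.16 for the difference between the Casp8 effects. The cause was not tested. Of single-gene results over the alternatives, 463 kept their side of the threshold, 10 newly passed and 21 no longer passed, the latter all for Ndufv2. DESeq2 gave no adjusted p for Ndufaf6 in the interaction test. With the replicate number as a block, the call of Ndufv2 stayed (adjusted p = 0.0471, edgeR), 0 members were called elsewhere and the medians were 0.17 and 0.18 for Ptpn6 deletion in Mlkl-/- and in Ripk3-/- Mlkl-/-. Same-numbered libraries did not deviate together in every pair. Correlations of their deviations from their group means ran from -0.40 to 0.40 over all genes tested. With 2 or 3 libraries in a group, this cannot decide whether they share more than a number. Cox8a per kb of transcript, chosen after seeing the data, was 8.23 times the median member in place of 12.5. Members with few counts, such as Cox6a2 and Ndufaf2, had the widest intervals for Ptpn6 deletion in Ripk3-/- and in Mlkl-/-.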
